A study of Mus musculus with 6 samples.

Results

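AP-1 is a dimer of proteins of the Fos and Jun families that binds short DNA elements through a basic leucine zipper. Fos, Jun and Egr1 are the textbook immediate early genes, which a stimulus switches on within minutes and without new protein synthesis, and their transcripts are short lived, so that a culture kept for hours in one medium is usually sampled after the first peak. Atf3, a stress-induced leucine zipper protein that can pair with Jun proteins, and Ier3, a target of NF-κB with roles in cell survival, are commonly counted among the early response genes. These 10 genes (Fos, Fosb, Fosl1, Fosl2, Jun, Junb, Jund, Egr1, Atf3 and Ier3) were examined in 1G11 cells, a microvascular endothelial cell line of C57BL/6NCrLBR mice. Transcript levels of 3 1G11-mock samples, which carry no SOD3 overexpression, were compared with those of 3 1G11-SOD3 samples, in which SOD3, the extracellular superoxide dismutase, was overexpressed. Before RNA was taken, all 6 samples had been cultured for 6 h in the conditioned medium of N202.1A cells, which are mouse mammary cancer cells. No sample without this medium or at another time was part of the comparison, so the values describe the difference between the cell lines at 6 h and not a response to the medium.

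The members were found by gene name, by a rule that uses no measured value although earlier results of these data were known when the genes were listed, from the annotation that each array file gives for its spots. The rule found all 10 genes, with 11 of the 55681 probes and 20 of the 59305 spots that are not controls. Fos had 1 probe printed 10 times, Fosl2 had 2 probes, and the other 8 genes had 1 probe and 1 spot each. On the 1G11-mock arrays the middle of the array, rows 129 to 256 and columns 55 to 109, read dim, and it held 11.14% of the spots. Jun and Junb were read there only, and the remaining 9 probes of 8 genes lay outside it. Values are therefore given apart for the 2 places. They are log2 intensities after background correction and quantile normalization, and a level can be compared between arrays for 1 probe but not between probes. A probe was called at a difference of more than 2-fold with an adjusted p under 0.05 in limma, the adjustment being over all probes.

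The 3 1G11-mock arrays and the 3 1G11-SOD3 arrays lay in 2 different rows of 1 slide, and slide row and cell line cannot be told apart. Between 34.2% and 43.8% of the spots of an array were well above background, and no spot was saturated. Sod3 itself was read in the middle of the array, at 13.61, 12.66 and 9.86 in 1G11-mock and at 16.37, 16.29 and 16.27 in 1G11-SOD3, a difference of 4.27 (log2, SE 0.703, limma adjusted p = 0.00791) that was 2.55 (SE 0.453) after the adjustment for spot position described below. Of 12 endothelial markers, 3 were well above background on all arrays, which were Kdr, Vwf and, with spots in the middle, Esam. Cdh5, Tek, Tie1, Emcn and Erg were so on none, and the others on some. The study regularly checked the endothelial origin of 1G11 cells by staining for VE-cadherin, the protein that Cdh5 encodes. Vwf was called lower in 1G11-SOD3 (-1.65, limma adjusted p = 0.00345) and Egfl7 higher (1.82, adjusted p = 0.0175). After the adjustment for spot position Vwf was still called (-1.33, adjusted p = 0.0389), but Egfl7 was not (1.02, adjusted p = 0.0682). Summed over these 12 markers, intensity ranged over the 1G11-mock arrays from 10554 to 13174 and over the 1G11-SOD3 arrays from 9642 to 12640. Of 8 pericyte and fibroblast markers, 4 were called higher in 1G11-SOD3 (Col1a1, Col3a1, Pdgfrb and, in the middle of the array, Acta2). Of all genes read outside the middle 0.831% were called higher, and of all probes in the middle 11.6%. The summed intensity of all 8 was between 74980 and 75833 on the 1G11-mock arrays against 139986 to 372151 on the others. Of 8 epithelial and 6 leukocyte markers none was called. The epithelial sum, between 68770 and 112900 for 1G11-mock against 46809 to 86202 for 1G11-SOD3, was 93.0% to 98.1% Krt19 (-0.51, adjusted p = 0.488), and Epcam was well above background on no array. The leukocyte sum (17616 to 24449 and 19141 to 24218) was 87.3% to 92.1% Itgam, and Ptprc was well above background on no array. A sum over probes is led by its brightest ones, which were Kdr for the endothelial markers (42.9% to 67.9%) and Col3a1 for the pericyte and fibroblast markers (52.6% to 72.1%). Dcn made up 7.7% to 37.2% of the latter sum. It read 17.07 on 1G11-SOD3 replicate 3 against 13.52 and 13.58 on the other 1G11-SOD3 arrays, and was not called (0.29, limma adjusted p = 0.903). The part of these markers in the differences below was not tested. Fewer cells expressing a gene and less of its RNA per cell cannot be told apart in such bulk samples.

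To show what the probes for the 3 genes discussed most read, the first 30 bases of each 60-base probe are given as deposited, from 5′ to 3′ in lower case with no base marked. Coordinates are those of the array annotation, whose genome build is not given.
Atf3, chr1:192994547-192994606, minus strand: cacagcagctttgtccttggctacaaactg
Jun, chr4:94716928-94716987, minus strand: atgctaacgcagcagttgcaaacgttttga
Fosl2 probe A, chr5:32460076-32460135, plus strand: gctatggaggaaagaacatattaaaaactt
Fosl2 probe B, chr5:32455088-32455147, plus strand: gattgctgagctgcagaaggagaaggagaa
The pair of Fosl2 probes differed in base composition, with 35% G and C in probe A and 55% in probe B. The Atf3 probe held 45% and the Jun probe 51.7%.

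Atf3 was the only probe of the 9 outside the middle that passed the test, and it was lower in 1G11-SOD3. Its level was 10.43, 10.42 and 10.77 on the 3 1G11-mock arrays and 9.28, 8.79 and 8.18 on the 3 1G11-SOD3 arrays. The cell lines did not overlap, with 1G11-SOD3 the lower, and the spot was well above background on all 6. The mean fell from 10.54 ± 0.20 (SD, n = 3) to 8.75 ± 0.55 (n = 3), a difference of -1.79 on the log2 scale (SE 0.290, 95% confidence interval -2.43 to -1.15, limma adjusted p = 0.00723) or 3.46-fold. In the background, 1.18% of the 49236 probes outside the middle were called lower and 0.646% higher. After the adjustment for spot position Atf3 differed by -1.39 (SE 0.247, adjusted p = 0.0145) or 2.63-fold, where 0.792% of the probes outside the middle were called lower and 1.02% higher, and with each array left out in turn by -2.04 to -1.48. It remained called in all 6 of those fits and in all 14 other settings. Over all probes, 748 to 1795 were called in those fits and 765 to 11082 in the other settings.

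The 3 genes whose pattern over the 6 arrays was most like that of Atf3, among 12204 other genes read outside the middle and well above background on all arrays, were Gdpd5, Gm11127 and the transcript NP883496. Likeness was the root mean square difference of log2 values, each centred on its own mean, and it was 0.140, 0.156 and 0.168. Gdpd5, a glycerophosphodiester phosphodiesterase, read 12.63, 12.97 and 13.11 in 1G11-mock and 11.50, 11.23 and 10.71 in 1G11-SOD3. The pattern chose these genes, so their values are a description.

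**Figure D1:**
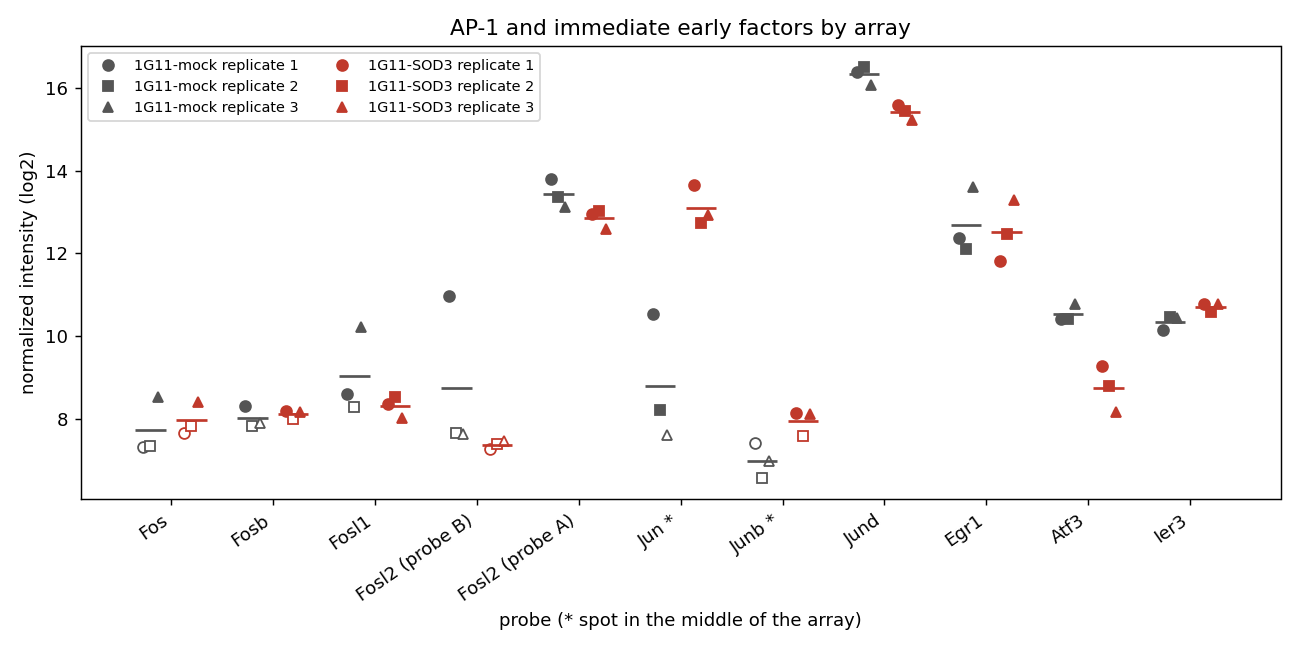
Normalized log2 intensity (y axis) of each member probe (x axis) on the 3 1G11-mock arrays (grey) and the 3 1G11-SOD3 arrays (red), with a bar at each mean. Open symbols were not well above background, and an asterisk marks spots in the middle of the array. Atf3 lay between 10.42 and 10.77 in 1G11-mock and between 8.18 and 9.28 in 1G11-SOD3, while Jun, in the middle, lay between 7.61 and 10.53 and between 12.73 and 13.64.

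Of the Fos family outside the middle, no probe passed the test. Fos itself, the founding member and the partner of Jun in the classical dimer, was read by 10 copies of its probe. Averaged over the copies, Fos read 7.32, 7.36 and 8.53 in 1G11-mock and 7.67, 7.84 and 8.41 in 1G11-SOD3. Replicate 3 was the highest array of each cell line, and the cell lines overlapped. On these 2 arrays 8 and 10 of the copies were well above background, and on the other 4 arrays none was. The difference was 0.24 (SE 0.342, 95% confidence interval -0.51 to 0.99, limma adjusted p = 0.812). Among the single copies the difference ranged from -0.03 to 0.38 and was above 0 in 9 of 10. After the adjustment for position the difference was 0.60 (SE 0.268, limma adjusted p = 0.233), and among the copies it ranged from 0.24 to 1.03. The copies were read on the same arrays and are not replicates of a cell line. The SD between copies of 1 array was 0.145 to 0.304, against an SD between arrays of 0.69 in 1G11-mock and 0.39 in 1G11-SOD3, so copies of the probe spread less than the arrays of a cell line did.

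Fosb, a Fos protein that is induced with Fos, read 8.32, 7.83 and 7.91 in 1G11-mock and 8.20, 7.996 and 8.17 in 1G11-SOD3. It was well above background on 3 of the 6 arrays, and the cell lines overlapped, with a difference of 0.10 (SE 0.229, 95% confidence interval -0.40 to 0.60, adjusted p = 0.888). Fosl1, also called Fra-1, lacks the activation domain of Fos and tends to appear later. It read 8.61, 8.28 and 10.22 in 1G11-mock and 8.37, 8.54 and 8.02 in 1G11-SOD3, so that 1 array of 1G11-mock stood above the other 5. The difference was -0.72 (SE 0.423, 95% confidence interval -1.65 to 0.20, adjusted p = 0.487), and it was -0.14 (adjusted p = 0.845) without 1G11-mock replicate 3.

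The probes for Fosl2 differed in their signal. Fosl2, or Fra-2, is the other Fos relative without the activation domain. Probe A was well above background on all 6 arrays and read 13.80, 13.36 and 13.13 in 1G11-mock and 12.95, 13.01 and 12.58 in 1G11-SOD3. The arrays of the cell lines did not overlap, but the difference of -0.58 (SE 0.251, 95% confidence interval -1.13 to -0.03, adjusted p = 0.316) did not pass the test and was 0.12 after the adjustment for position. Probe B was well above background on 1 array only. It read 10.98 on 1G11-mock replicate 1, 7.67 and 7.63 on the other 1G11-mock arrays and 7.27, 7.40 and 7.47 in 1G11-SOD3. Its difference of -1.38 (SE 0.695, adjusted p = 0.405) became -0.26 without 1G11-mock replicate 1. No 1G11-SOD3 array was well above background, and 1 of the 3 1G11-mock arrays alone measured it, so no fold is given. In probe A the same array read 13.80 against 13.36 and 13.13 on the other 1G11-mock arrays.

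Jund, the Jun family member that cells express at steady levels without a stimulus, was lower in 1G11-SOD3 without passing the test. It read 16.39, 16.51 and 16.06 in 1G11-mock and 15.59, 15.43 and 15.21 in 1G11-SOD3, and the arrays did not overlap. The difference was -0.91 (SE 0.231, 95% confidence interval -1.42 to -0.40, adjusted p = 0.0621) or 1.88-fold. With the replicate number as a block the adjusted p was 0.0451, still under the 2-fold limit, and after the adjustment for position the difference was -0.34 (adjusted p = 0.516). Over all 14 other settings it lay between -0.95 and -0.10 and was not called.

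Egr1, a zinc finger factor that responds to the same upstream signals as Fos, was well above background on all arrays. It read 12.37, 12.10 and 13.61 in 1G11-mock and 11.82, 12.47 and 13.28 in 1G11-SOD3, with replicate 3 the highest in each. The spread within a cell line (SD 0.81 and 0.73, n = 3) exceeded the difference of -0.17 (SE 0.427, 95% confidence interval -1.10 to 0.77, adjusted p = 0.904), whose sign turned under 2 other settings and without 1G11-mock replicate 3 or 1G11-SOD3 replicate 1. Ier3 read 10.14, 10.45 and 10.44 in 1G11-mock and 10.77, 10.59 and 10.78 in 1G11-SOD3. Its arrays did not overlap, and the difference was 0.37 (SE 0.218, 95% confidence interval -0.11 to 0.84, adjusted p = 0.499).

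Over the 9 probes outside the middle, 1 was called lower and none higher, where 1.18% of all probes there were called lower and 0.646% higher. The arrays did not overlap in 5 of the 9, with 1G11-SOD3 higher in 1 (Ier3) and lower in 4 (Atf3, Jund and both Fosl2 probes). Of these, Fosl2 probe B was well above background on 1 array only, so its lack of overlap rests mostly on dim readings. Among all probes outside the middle, 8.25% were higher and 11.3% lower without overlap. After the adjustment for position 2 of the 9 did not overlap, Atf3 lower and Fosb higher, where 7.46% of all probes outside the middle were lower and 17.8% higher without overlap. The median difference of the 9 was -0.58 and that of all probes outside the middle -0.06. After the adjustment for position these medians were 0.06 and 0.10. With 3 arrays against 3, an exact permutation test of a single probe cannot go below p = 0.1 (two-sided).

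**Figure D2:**
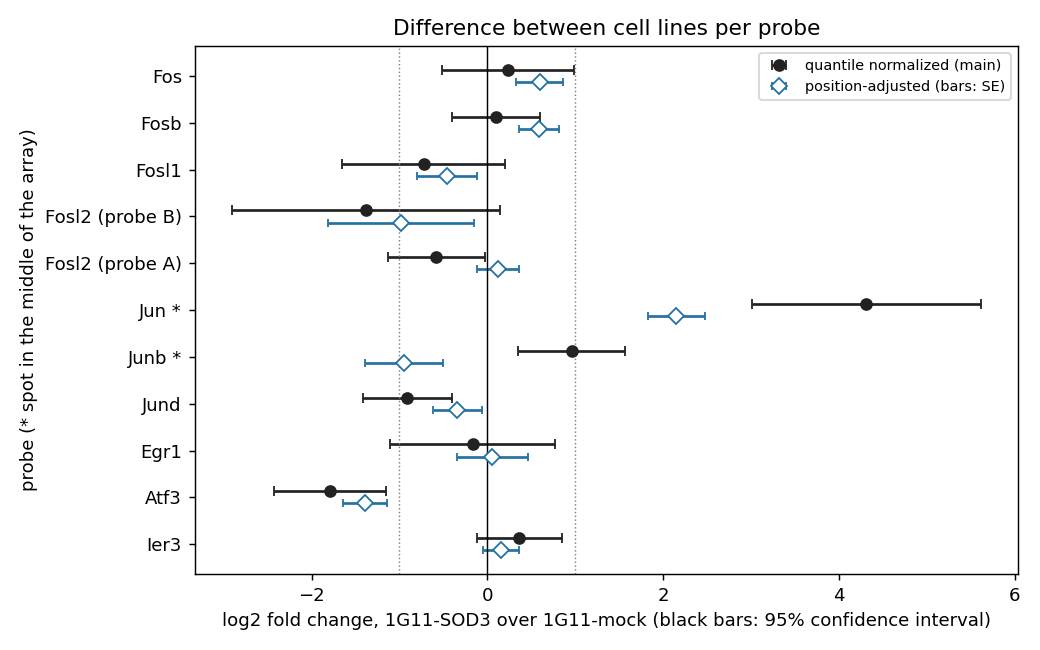
Difference of 1G11-SOD3 over 1G11-mock (x axis, log2 fold change) for each member probe (y axis), as quantile normalized with 95% confidence intervals (filled) and after the adjustment for spot position with SE (open). Dotted lines mark 2-fold. For Junb and Fosl2 probe B the position on the x axis is a difference of log2 intensity only, since a cell line had no array well above background. Atf3 lay at -1.79 and -1.39, Jun at 4.31 and 2.15, and Junb changed sign, from 0.96 to -0.95.

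Jun, the main transcriptional activator of its family, was higher in 1G11-SOD3 by the largest difference of the 11 probes, but its single spot lay in the middle of the array. It read 10.53, 8.22 and 7.61 in 1G11-mock and 13.64, 12.73 and 12.93 in 1G11-SOD3. The groups were far apart, the 1G11-SOD3 arrays lay close together, and 1 of the 1G11-mock arrays was not well above background. The difference was 4.31 (SE 0.593, 95% confidence interval 3.01 to 5.61, adjusted p = 0.00308) or 19.9-fold, and it was called in each fit without 1 array (3.75 to 5.21). Of the 6155 probes read only in the middle, 11.6% were called higher and 0.0487% lower, so that a higher call there was common.

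Junb, which antagonizes Jun on some promoters and is itself an early gene, was the other member in the middle. It read 7.43, 6.57 and 6.98 in 1G11-mock, where it was well above background on no array, and 8.14, 7.59 and 8.13 in 1G11-SOD3, where it was so on 2. The arrays did not overlap, as in 27.1% of the middle probes in this direction. The difference was 0.96 (SE 0.277, 95% confidence interval 0.35 to 1.57, adjusted p = 0.104), and its adjusted p was 0.0379 with the replicate number as a block without reaching 2-fold. The 0.96 is a difference of log2 intensity, and it is not given as a fold, since no 1G11-mock array measured Junb.

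These values were read against those of the spots around them. For each member with 1 spot, the spots within 12 rows and 12 columns were taken that had a 1G11-SOD3 mean within 2 log2 units of its own and were well above background on at least 3 arrays. Around Jun, 82 such spots had a median difference of 2.74 with quartiles of 2.33 and 3.12, and Jun at 4.31 lay 1.57 above the median, with 1 of the 82 higher. Around Junb, 97 spots had a median of 1.23 with quartiles of 0.79 and 1.52, and Junb at 0.96 lay 0.27 below it. The 1G11-SOD3 level was used to choose these spots, so the values describe the surroundings and are not a test.

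Outside the middle the medians were closer to 0 than around Jun or Junb. Around Atf3, 106 spots had a median of -0.35 with quartiles of -0.66 and -0.09, and Atf3 at -1.79 lay 1.44 below it. Around Jund, 30 spots had a median of -0.35, and Jund lay 0.56 below. Around Fosl2 probe A the median of 48 spots was -0.51 and the probe's own difference -0.58, and around Ier3 the median of 126 spots was 0.34 and its own 0.37. For Fosl2 probe A and Ier3, then, the difference between the cell lines was about that of the spots near them.

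**Figure D3:**
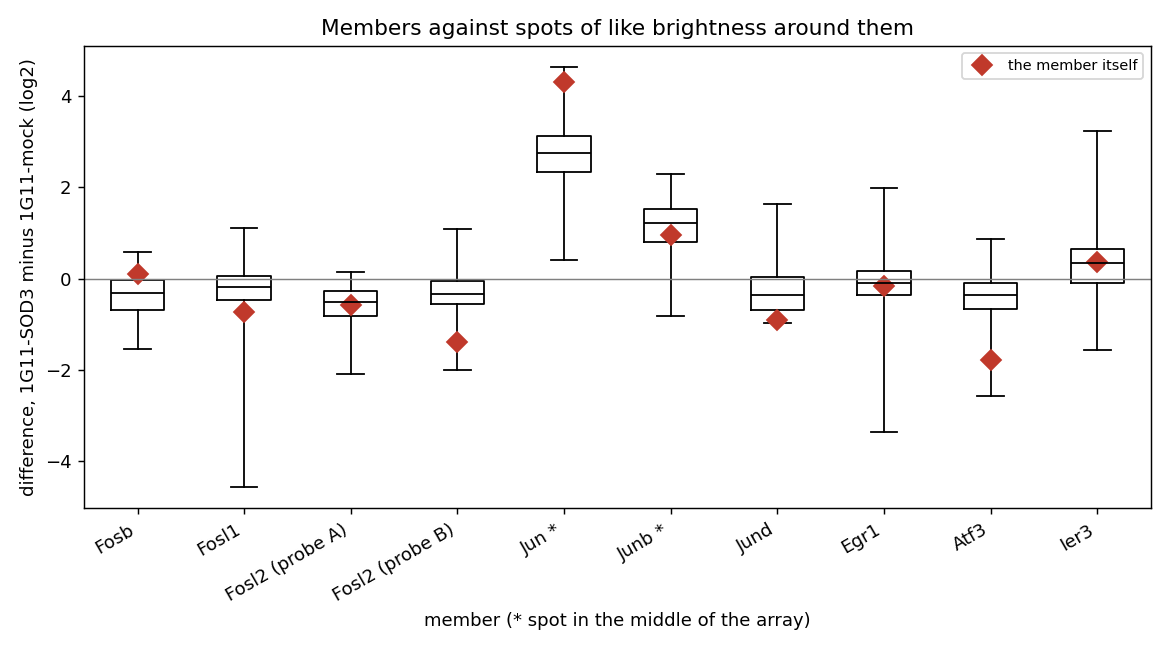
Difference of 1G11-SOD3 minus 1G11-mock (y axis, log2) of each member with 1 spot (red diamond) and of the spots of like 1G11-SOD3 level within 12 rows and columns (box, quartiles and median; whiskers, lowest and highest), for each member (x axis, asterisk: middle of the array). Jun at 4.31 lay above the box around a median of 2.74, Junb at 0.96 within its box, and Atf3 at -1.79 below its box.

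The adjustment for position took a smooth surface off each array before normalization. Its width was chosen so that copies of 1 probe at different places gave like differences, and over 231 probes with copies it brought the SD among copies from 0.612 to 0.235. In the middle it left Jun higher in 1G11-SOD3 by 2.15 (SE 0.322, adjusted p = 0.00637) or 4.44-fold, with adjusted levels of 10.63, 9.65 and 9.49 against 12.40, 12.08 and 11.74. The arrays still did not overlap. Junb turned to -0.95 (SE 0.446, adjusted p = 0.251). The surface came from spots that were well above background on at least 3 arrays, and over all 6155 middle probes, dim ones included, the adjusted median was -0.66, with 1.84% called higher and 17.8% lower. For the 1102 middle probes well above background on all arrays it was 0.23, down from 1.01. An adjusted value of a dim probe such as Junb therefore has no settled direction, and that of Jun rests on 1G11-mock levels of which 1 was not well above background.

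Fos, Fosl1 and Egr1 had in common a high value on 1G11-mock replicate 3. On this array they lay 1.17, 1.61 and 1.24 above the higher of the other 2 1G11-mock arrays. The limit of more than 2-fold above both was set after these values had been seen. Of the 7 member probes outside the middle that were well above background on 1G11-mock replicate 3, these 3 passed it (42.9%). This filter used the array whose excess was counted, and of the 1G11-mock arrays Fos was well above background on this array only. The shares given here are therefore a description and not a test. Of 18 such genes of the list of other immediate early genes, 5 did (27.8%), which were Egr2, Nr4a1, Ier2, Ccn1 and Ccn2, and of all 17089 such probes outside the middle 2.66% did.

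Ccn1, a secreted matrix protein induced by serum, read 11.45, 11.21 and 13.47 in 1G11-mock and 12.41, 12.27 and 13.23 in 1G11-SOD3. Ier2, a nuclear protein of the early response, read 8.07, 8.57 and 10.43 in 1G11-mock and 8.71, 8.68 and 8.60 in 1G11-SOD3. 1G11-SOD3 replicate 3 was the highest array of its line for Ccn1, Ccn2, Fos and Egr1, but not for Ier2, Fosl1, Egr2 or Nr4a1. After the adjustment for position 1G11-mock replicate 3 still stood more than 2-fold above both other arrays of its line for Egr1 (by 1.28), Ccn1 (1.93), Nr4a1 (1.61), Ier2 (1.47) and Ccn2 (1.36). It did not for Fos (0.46), Fosl1 (0.98) or Egr2 (0.57), and the share of all such probes was 0.696%. On 1G11-SOD3 replicate 3, no member and none of the other immediate early genes stood more than 2-fold above both other arrays of its line. Without 1G11-mock replicate 3 the difference between the cell lines was 0.66 for Fos (adjusted p = 0.328), -0.14 for Fosl1 and 0.29 for Egr1 (adjusted p = 0.770), and none was called with or without it.

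**Figure D4:**
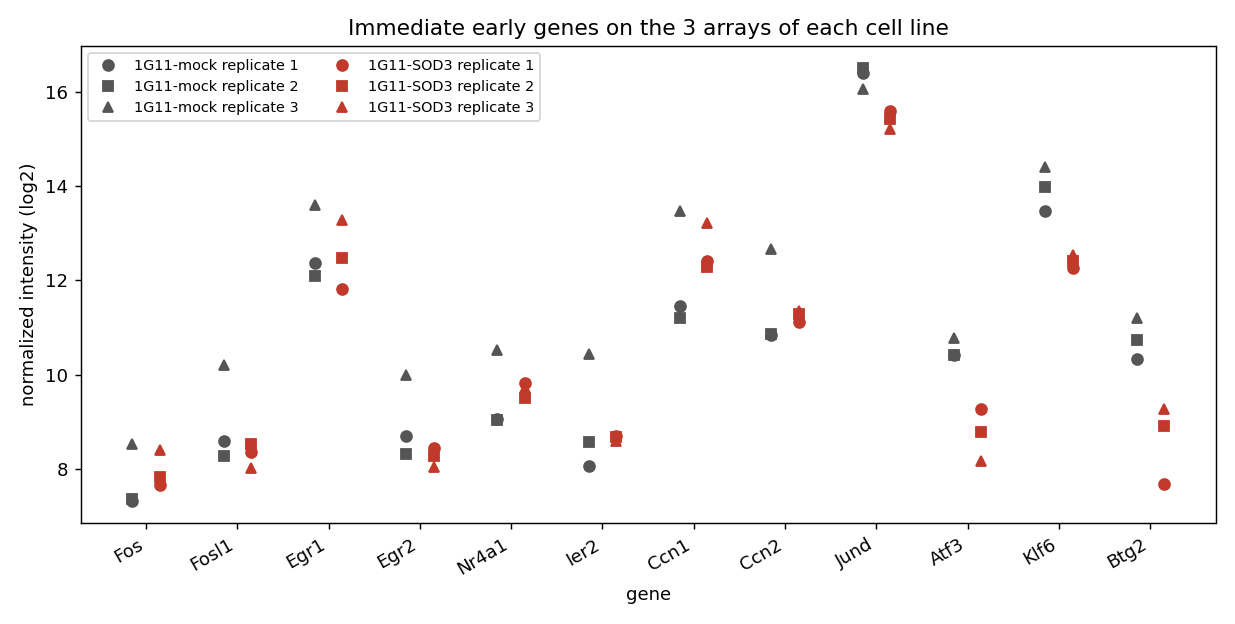
Normalized log2 intensity (y axis) of 12 members and other immediate early genes (x axis) on the 3 1G11-mock arrays (grey) and the 3 1G11-SOD3 arrays (red), with symbols by replicate number. For Fos, Fosl1, Egr1, Egr2, Nr4a1, Ier2, Ccn1 and Ccn2 the 1G11-mock replicate 3 (grey triangle) lay 1.17 to 2.02 above the other 2 arrays of its line, whereas for Atf3, Klf6 and Btg2 all 1G11-SOD3 arrays lay below all 1G11-mock arrays.

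The genes around AP-1 were described with 4 lists of 88 genes in all, each gene being represented by its brightest probe outside the middle, which 77 genes had. Of these 77, 1 was called higher and 5 lower, where 0.831% of all 33231 genes were called higher and 1.41% lower. After the adjustment for position the numbers were also 1 and 5, with 1.22% and 0.894% in the background, but the genes were partly others. Klf6, Btg2 and Ddit3 remained called lower, Mapk9, Mef2d and Map2k3 were no longer called, and Cxcl1 and Vegfa were then called lower and Maf higher.

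Of 24 other immediate early genes, 21 were read outside the middle, 2 were called lower and none higher. Their median difference was -0.23 and that of all genes -0.06, but after the adjustment for position these were 0.08 and 0.09. Klf6, a zinc finger factor of vascular injury, fell from 13.95 ± 0.46 to 12.40 ± 0.14 (SD, n = 3 each), a difference of -1.55 (SE 0.264, limma adjusted p = 0.00942). Btg2, an antiproliferative p53 target, fell from 10.75 ± 0.44 to 8.63 ± 0.84, a difference of -2.13 (SE 0.386, adjusted p = 0.0134). Each remained called after the adjustment for position. With Agilent's processed signal, scaled to its 75th percentile, Klf6 differed by -0.86 (adjusted p = 0.0659) and was not called, and without 1G11-mock replicate 2 by -1.54 (adjusted p = 0.0513). Btg2 lost its call when 1G11-mock replicate 2 was left out (-2.18, adjusted p = 0.0679), and also when replicate 3 was (-1.94, adjusted p = 0.0565). Egr2 differed by -0.75 (adjusted p = 0.398).

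Among 20 other leucine zipper partners, 18 were read outside the middle and 1, Ddit3, was called. Ddit3 encodes the stress factor CHOP. It fell from 12.15 ± 0.29 to 10.87 ± 0.28, a difference of -1.28 (SE 0.249, adjusted p = 0.0189), and -1.06 after the adjustment for position. Nfe2l2, the NRF2 factor of the antioxidant response, differed by -1.11 (adjusted p = 0.0612) and Atf6, a sensor of unfolded protein, by 1.19 (adjusted p = 0.0621). The median of the list was -0.11, and -0.03 after the adjustment for position.

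All 20 kinases and factors upstream of AP-1 were read outside the middle, with 1 called higher, 2 lower and a median of -0.03 (adjusted for position, 0.0070). Map2k3, a kinase of p38, rose from 9.76 ± 0.29 to 11.37 ± 0.25, a difference of 1.61 (SE 0.245, adjusted p = 0.00522). Mapk9, which encodes the Jun kinase JNK2, fell by 1.19 (adjusted p = 0.0185) and Mef2d, a MADS box factor of the Jun promoter, fell by 1.22 (adjusted p = 0.0180). None of the 3 passed the test after the adjustment for position, where Map2k3 differed by 0.82 (adjusted p = 0.0501), Mapk9 by -0.56 and Mef2d by -0.62.

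None of the 18 known AP-1 target genes read outside the middle was called, of 24 in the list, and their median was -0.31 (adjusted for position, -0.22). The largest differences were those of the chemokine gene Cxcl1 (-1.62, adjusted p = 0.0543), of Vegfa, the vascular growth factor (-1.31, adjusted p = 0.0992), and of the tissue factor gene F3 (0.69, adjusted p = 0.200). With the replicate number as a block, Cxcl1 (adjusted p = 0.00225), Vegfa (adjusted p = 0.0218) and, among the kinases, Map2k1 (-1.21, adjusted p = 0.0145) were called lower as well. Of the matrix metalloproteinase genes read outside the middle, the classical targets Mmp3, Mmp10, Mmp13 and Mmp1a were well above background on no array.

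In a RefSeq table of GRCm38.p6 promoters (300 bases, 250 before the start and 50 after), 8 of the 10 genes were present, all but Fosl1 and Egr1. None of the 8 held the AP-1 sites TGACTCA or TGAGTCA on either strand, which 5.20% of 32851 promoters did, nor the element TGACGTCA (1.79%), 1 form of the NF-κB site (0.155%) or a CArG box (1.63%). This says only that these letters are not in these windows.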

How the data were processed

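RNA levels of 1G11-mock (3 samples) and 1G11-SOD3 (3 samples) were read on Agilent SurePrint Mouse G3 arrays with 1 color. What the authors deposited per array is the scanner intensity of each spot and of its local background from Feature Extraction 10.7.3.1, without normalization between arrays. A second deposited table holds their log2 values after normexp background correction (offset of 50) and quantile normalization in limma. Its log2 values for spots that are not controls were all recomputed to within 0.01 from median pixel intensity, with control spots kept in the normalization. Its columns had a median of 7.52.

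Here the mean spot intensity was corrected by normexp (offset of 50) with the local background median. Control spots and spots flagged as outliers were dropped, and quantile normalization followed on the log2 scale (limma 3.58.1, R 4.3.3). Copies of a probe were averaged. The comparison used limma's moderated test, with Benjamini-Hochberg adjusted p-values over 55681 probes. The number of arrays limits the precision. Genes were named by RefSeq accession (27656 probes), by symbol (773), by an older symbol (171) or as in the files. Where no array of one line read a member probe well above background, only the difference of log2 intensity was given and no fold. For the position adjustment, a Gaussian surface 4 spots wide was used, the best of 8 widths on probes printed 10 times. Tables were made with Python 3.11.15, pandas 2.3.3 and scipy 1.17.1, figures with matplotlib 3.10.9.

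Replicates with the same number were hybridized in the same slide column, and their deviations from the mean of their line correlated at 0.164, 0.103 and 0.156 over 16279 probes. A pairing of samples and the slide column cannot be told apart, and the main test was unpaired. The replicate number as a block was an alternative, with other background corrections, scalings, filters, the deposited table and each array left out in turn. Named are all members, the called genes of each list (or the 3 with the largest difference), the 3 genes most like Atf3, and Sod3. Members, lists and rules were chosen with earlier results of these data known. The limma fit was tried on simulated data with changes planted in bright probes only, so dim probes such as Fos and Junb were not covered. The surface was tried on a simulated dim patch, at another width than the one used. The files do not say whether the 3 samples of a line were separate cultures beyond their replicate numbers, and the study describes them as independent experiments. No per-sample column was left unused (0).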

Additional observations from a re-analysis of the deposited data

How the results depend on the processing

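The number of member probes called was 2 (Jun higher and Atf3 lower) in the main setting and stayed within 1.5 times of it under 13 alternatives, but it was 1 of 9 when the middle of the array was left out, which removes Jun and Junb. Over all probes, 1624 were called in the main setting. Among the alternatives this was lowest with the middle left out (765) and highest with the processed signal (11082). Without 1 array the number of member probes called was 2 each time (range 2 to 2), while 748 to 1795 of all probes were called. Of 77 list genes, 6 were called, and 11 of 60 when dim probes were left out, where 1803 of the probes kept were called. Without 1 array the number of list genes called ranged from 2 to 7, with 2 called without 1G11-mock replicate 2 or 3 and 3 without 1G11-SOD3 replicate 1. Over all probes, 776, 1142 and 748 were called in those fits in turn, against 1624 in the main setting. Of the 6 fits without 1 array, Map2k3 was called in 6, Klf6 in 5, Btg2 in 4, Ddit3 in 2, Mapk9 in 2 and Mef2d in 1, each with the same direction in all 6. With the replicate block 2 member probes, 9 list genes and 2241 of all probes were called. Among the members and list genes, the block changed no other call than those of Map2k1, Cxcl1 and Vegfa. Scaling to the 75th percentile moved the median of all probes to -0.33 from -0.03 and the processed signal scaled so moved it to -0.52. Under the former, Fos differed by -0.0069, Fosb by -0.20 and Fosl2 probe B by -1.76 (adjusted p = 0.0248), the only further member call. Under the latter, Fosl2 probe A differed by 0.24 and Egr1 by 0.26, and Klf6 (-0.86) and Mapk9 (-0.58) were not called, nor was Mapk9 under the former (-1.03, adjusted p = 0.0513). The position adjustment gave 0.12 for Fosl2 probe A, 0.057 for Egr1 and -0.95 for Junb. Leaving out 1 array, Egr1 ranged from -0.55 to 0.29 and was positive without 1G11-mock replicate 3 (0.29) and without 1G11-SOD3 replicate 1 (0.18). The causes were not tested. Depth of signal limits Fos, Fosb, Fosl2 probe B and Junb, each of which fell short of well above background on at least 3 of the 6 arrays.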
